A study of Mus musculus with 8 samples.

Results

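Endothelial cells line the vessels of the liver, and their transcripts were followed here through 10 marker genes read in whole liver tissue: Tek, Tie1, Kdr, Pecam1, Cdh5, Stab1, Stab2, Lyve1, Clec4g and F8. The genes were chosen by name as endothelial and sinusoidal markers, with earlier results of these data known. All 10 were found among the 19055 gene symbols of the table, and all 10 passed the filter on low values, as did 13704 genes in all. The question asked of them was whether the markers differ between genotypes by 1 common factor, as a changed share of endothelial cells would make them do, or each by its own amount.

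Liver sinusoids are lined by a specialised endothelium with open pores and no organised basement membrane, which lets plasma reach the hepatocytes. These cells take up waste proteins and glycans from blood through scavenger and lectin receptors, and they make coagulation factor VIII. After part of the liver is removed, hepatocytes divide first and sinusoidal endothelial cells follow, guided by vascular endothelial growth factor (VEGF) and angiopoietins, while the endothelium returns growth signals to hepatocytes.

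The 8 libraries came from livers of mice aged 8 to 9 weeks, taken 48 hours after partial hepatectomy. There were 3 livers of genotype URI(+/+)Hep, wild-type littermates that served as controls. The other 5 livers were labelled URI(+/D)Hep, from mice with a URI deletion directed at hepatocytes through a serum albumin-CreERT2 line. URI is a prefoldin-like protein encoded by Uri1. The notation +/D reads as 1 intact and 1 deleted copy, though the labels do not spell it out. Per the labels all mice received tamoxifen for a week. The sources used here do not say whether the controls carried the Cre. The deletion is thus directed at hepatocytes and not at the endothelium read here. Nothing says more of how the samples of a group were separated than their replicate numbers, so p-values measure the spread between these samples.

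The libraries held 3838674 to 4337966 recovered reads in the controls and 4294494 to 4800694 in the URI(+/D)Hep livers. Values are given as normalized reads, that is, reads after division by the size factor of their library. Uri1 itself stood at 384 ± 79.3 normalized reads (SD, n = 3) in the controls and 383.5 ± 42.7 (SD, n = 5) in the URI(+/D)Hep livers, so the counted 3′ tags did not separate the genotypes, and directions rest on the labels. Where the deleted exons do not hold the tag, its count checks nothing. Controls 1 and 2 had Xist at 9.59 and 2.95 normalized reads, against 1217 to 2357 in the other 6 libraries. The 4 Y-linked genes had a combined level of 3.54 in URI(+/D)Hep 1 against 569 to 1558 elsewhere. Control 3 and URI(+/D)Hep 2 to 5 thus had both Xist and Y-linked reads. A library called a liver here may therefore hold material of more than 1 mouse. Sex-linked make-up was not balanced between the genotypes. Mki67, a gene of dividing cells, stood at 24.0 in control 1 and 49.5 in URI(+/D)Hep 5, against 268 to 586 in the remaining livers. The labels call the cell type epithelial, but the tissue was whole liver: the 13 hepatocyte markers measured summed to between 43187 and 52048 normalized reads, and the 10 endothelial markers to between 2180 and 3121.

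The sequences around the start sites of 5 of these genes are shown because they form the contrasts described below: the TIE receptor genes Tek and Tie1, the stabilin genes Stab2 and Stab1, and F8. Each window runs from 250 bases before to 50 bases after the start, 5′ to 3′ on the strand of the gene, from RefSeq, build GRCm38.p6. That build is not the GRCm39 named in the submitters' processing notes, so the coordinates belong to GRCm38.p6 alone. Capitals mark GGAA or its reverse complement TTCC, the core bound by ETS transcription factors, which are common regulators of endothelial genes, and also 4 longer motifs on either strand: the ETS-type forms CAGGAAG and, beside it, CCGGAAG, then the GATA-type AGATAA, and last the TATA-box form TATAAA.
Tek, chr4:94739039-94739338, plus strand: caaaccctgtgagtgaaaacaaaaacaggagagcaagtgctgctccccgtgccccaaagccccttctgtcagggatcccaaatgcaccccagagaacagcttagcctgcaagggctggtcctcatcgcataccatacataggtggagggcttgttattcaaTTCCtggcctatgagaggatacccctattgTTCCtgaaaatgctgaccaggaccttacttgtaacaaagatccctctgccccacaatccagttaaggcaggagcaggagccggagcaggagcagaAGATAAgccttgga
Tie1, chr4:118489800-118490099, minus strand: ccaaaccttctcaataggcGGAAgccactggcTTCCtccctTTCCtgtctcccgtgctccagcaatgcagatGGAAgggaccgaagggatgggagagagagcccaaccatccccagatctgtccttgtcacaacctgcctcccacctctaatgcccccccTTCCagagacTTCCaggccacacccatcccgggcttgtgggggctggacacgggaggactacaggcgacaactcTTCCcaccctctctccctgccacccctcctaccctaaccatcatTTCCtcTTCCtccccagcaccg
Stab2, chr10:87007893-87008192, minus strand: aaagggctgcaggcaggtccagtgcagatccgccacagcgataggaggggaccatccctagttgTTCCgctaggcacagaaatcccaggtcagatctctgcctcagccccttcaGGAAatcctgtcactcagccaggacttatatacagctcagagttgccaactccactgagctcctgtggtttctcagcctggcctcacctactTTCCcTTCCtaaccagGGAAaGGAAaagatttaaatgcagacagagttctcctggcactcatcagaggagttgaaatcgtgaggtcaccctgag
Stab1, chr14:31168592-31168891, minus strand: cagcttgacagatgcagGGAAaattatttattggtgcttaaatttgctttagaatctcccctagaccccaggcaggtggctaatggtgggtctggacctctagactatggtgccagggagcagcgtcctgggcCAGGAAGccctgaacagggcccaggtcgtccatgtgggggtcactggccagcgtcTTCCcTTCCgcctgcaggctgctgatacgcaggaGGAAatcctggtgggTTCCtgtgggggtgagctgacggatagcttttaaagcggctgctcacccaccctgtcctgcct
F8, chrX:75379992-75380291, minus strand: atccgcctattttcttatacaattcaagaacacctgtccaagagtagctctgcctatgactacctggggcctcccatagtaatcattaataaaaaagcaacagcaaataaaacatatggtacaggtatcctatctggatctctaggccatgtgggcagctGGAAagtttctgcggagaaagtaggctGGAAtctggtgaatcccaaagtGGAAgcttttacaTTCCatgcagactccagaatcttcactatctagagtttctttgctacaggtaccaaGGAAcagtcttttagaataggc

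A window was found for 7 of the 10 markers, these 5 and Kdr and Clec4g. The last 30 bases of all 7 windows lie in transcripts of the same gene. The ETS core, counted on both strands, occurs 2 times in the Tek window, 9 times in that of Tie1, 6 times each in those of Stab2 and Stab1 and 5 times in that of F8. Over all 32851 windows of the same length the median is 3 and the 5th to 95th percentiles are 1 and 7, and 96.0% hold at least 1 core. Either longer ETS-type form, which contains the core, is in 20.9% of all windows and in 1 of the 7 here, that of Stab1, where CAGGAAG begins 117 bases before the start. The motif AGATAA begins 37 bases into the Tek transcript and is in 11.2% of all windows. TATAAA is in none of the 5 windows shown and is in 13.6% of all. These matches are a description of the letters, not of binding.

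The estimates of the 10 markers ran from 0.737-fold to 1.77-fold, and no member passed adjustment in limma. Whether the 10 estimates together depart from 1 common factor was not tested. Ratios between chosen pairs of markers, which a common factor would leave unchanged, are compared below, and none passed adjustment. Tek, F8 and Stab2 stood higher in all 5 URI(+/D)Hep livers than in any control, by 1.63-, 1.77- and 1.27-fold, while Stab1 stood lower, at 0.737-fold, and Tie1 was level, at 1.00-fold. Of the 10 log2 fold changes 9 were above 0, though that of Tie1 was 0.01, with a median of 0.32 against -0.002 over all genes tested, of which 49.8% were above 0. In limma, with Benjamini-Hochberg adjustment over the 13704 genes, 0 of the 10 passed an adjusted p of 0.05 in either direction, where 0% of all genes were called higher and 0.0146% lower. At an unadjusted p under 0.05 limma counted 3 markers higher, Tek, F8 and Stab2, and 1 lower, Stab1, against 8.35% of all genes higher and 9.33% lower. The 3 markers above all controls stand beside 6.13% of all genes, and 0 markers lay below all controls, against 7.3% of all genes. With fewer controls more genes separate: without control 1 and URI(+/D)Hep 5, 5 markers lay above and 0 below, beside 12.9% and 13.6% of all genes. Control 3 alone against URI(+/D)Hep 2 to 5 left 7 markers above and 1 below, beside 25.9% and 28.6%, and without control 3 there were 3 above and 1 below, beside 11.8% and 13.2%. DESeq2 on the recovered reads called 2 markers higher, Tek and F8, where it called 2.03% of the genes it adjusted higher and 2.94% lower, and edgeR called 0 markers, against 0% of all genes higher and 0.0219% lower. No member was called by limma in any set with libraries left out, where at most 0.0735% of genes were called higher and 0.14% lower, both without control 3. Without control 1, 0.00735% were called higher, and without control 1 and URI(+/D)Hep 5, 0.00746%.

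**Figure D1:**
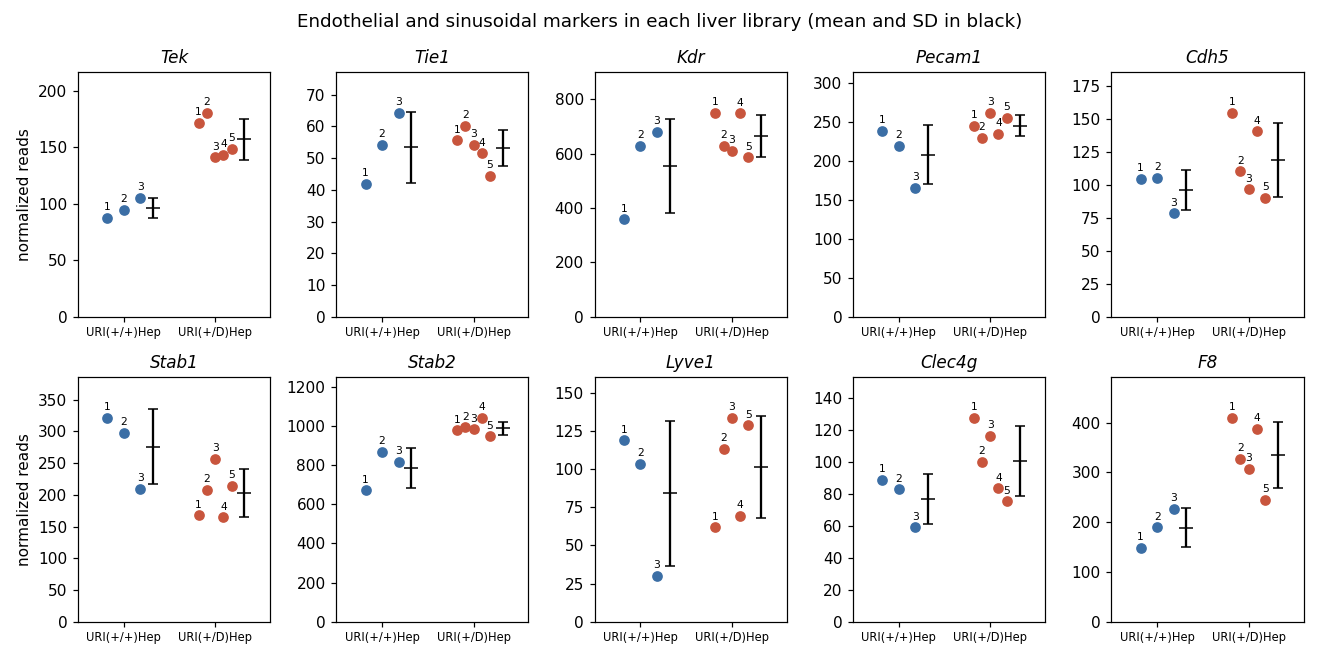
Normalized reads of each marker (vertical axes, from 0) in the 3 URI(+/+)Hep and 5 URI(+/D)Hep livers, with the replicate number above each point and mean and SD in black. Tek, Stab2 and F8 show no overlap between the groups, and Stab1 alone has a lower mean by over 10 normalized reads in the URI(+/D)Hep livers.

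Among the receptor tyrosine kinases, Tek and Tie1 went different ways. Tek encodes TIE2, the receptor for angiopoietins that keeps vessels stable or lets them sprout. It read 87.5, 94.5 and 105 normalized reads in controls 1 to 3 and 171, 181, 141, 143 and 148 in URI(+/D)Hep 1 to 5. Every URI(+/D)Hep liver was above every control, with a gap between 105 and 141. The means were 95.7 ± 8.86 (SD, n = 3) and 157 ± 17.9 (SD, n = 5), giving 0.70 as log2 fold change (SE 0.13, 95% interval 0.40 to 1.01, limma adjusted p = 0.108). The two-sided exact permutation p was 0.0179, the smallest that 56 splits allow, and DESeq2 gave an adjusted p of 0.00435. Over 23 alternative settings the log2 fold change of Tek lay between 0.53 and 0.77, with adjusted p from 0.00435 to 0.616 over limma, edgeR and DESeq2. Tie1 encodes the partner of TIE2, which binds no angiopoietin by itself and modulates its signal. It read 42.0, 54.2 and 64.4 in the controls and 55.7, 60.2, 54.1, 51.5 and 44.5 in the URI(+/D)Hep livers. All 5 of these lie inside the range of the controls. The log2 fold change was 0.01 (SE 0.19, 95% interval -0.41 to 0.43, limma adjusted p = 0.988), and its sign flips under TMM recentring and quantile normalization. With 35 to 65 reads in a library, counting error of 12.4 to 16.9% is a large part of the spread of Tie1, 21.0% of the mean in controls.

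Kdr encodes the main signalling receptor for VEGF on endothelium. It read 359, 629 and 681 in the controls and 751, 629, 612, 748 and 586.5 in the URI(+/D)Hep livers. Control 1 is low, and the other controls lie among the URI(+/D)Hep livers. The log2 fold change was 0.30 (SE 0.21, 95% interval -0.16 to 0.77, limma adjusted p = 0.469), and without control 1 it was 0.02.

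The junction genes Pecam1 and Cdh5 stood slightly higher in the URI(+/D)Hep livers, within the spread. Pecam1 encodes CD31, an adhesion molecule between endothelial cells that leukocytes and platelets also carry. It read 239, 219.6 and 165 in the controls and 245, 229.6, 262, 235 and 255 in the URI(+/D)Hep livers. The 5 URI(+/D)Hep values are close to each other, and 3 of them exceed all controls. The log2 fold change was 0.25 (SE 0.13, 95% interval -0.05 to 0.56, limma adjusted p = 0.359). Cdh5 encodes VE-cadherin, the adhesion protein of endothelial junctions. It read 104, 105 and 78.3 in the controls and 155, 110.2, 96.7, 140.5 and 90.0 in the URI(+/D)Hep livers. URI(+/D)Hep 1 and 4 are high and the rest overlap the controls, giving 0.28 as log2 fold change (SE 0.21, 95% interval -0.19 to 0.76, limma adjusted p = 0.516). Without control 3 the log2 fold change was 0.10 for Pecam1 and 0.14 for Cdh5.

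The scavenger receptors Stab1 and Stab2, paralogues that both clear hyaluronan-like or oxidised ligands from sinusoidal blood, had opposite signs. Stab2 read 672, 866.5 and 816 in the controls and 977, 993, 983, 1041 and 946.5 in the URI(+/D)Hep livers. The groups do not overlap, and the URI(+/D)Hep values are tight, with a spread of 3.46% of the mean. The means were 785 ± 101 (SD, n = 3) and 988 ± 34.2 (SD, n = 5), giving 0.34 as log2 fold change (SE 0.10, 95% interval 0.11 to 0.57, limma adjusted p = 0.157, exact permutation p = 0.0179). Stab1, which macrophages also express, read 321, 297 and 209 in the controls and 168, 208, 257, 165 and 215 in the URI(+/D)Hep livers. Control 3 sits at the level of the URI(+/D)Hep livers, of which 3 lie below all controls. The means were 276 ± 59.1 (SD, n = 3) and 203 ± 38.0 (SD, n = 5), giving -0.44 as log2 fold change (SE 0.19, 95% interval -0.87 to -0.01, limma adjusted p = 0.277, exact permutation p = 0.107). Without control 3 all remaining URI(+/D)Hep values of Stab1 were below controls 1 and 2 and the log2 fold change was -0.63. In the GRCm38 annotation the 3′ end of Stab1 lies within the span of Nt5dc2 on the other strand, and that of Stab2 within an antisense RNA gene. The libraries keep the strand but the counting is not stated to use it, so the levels of Stab1 and Stab2 carry that uncertainty. Nt5dc2 reached at most 46.1 normalized reads. The span of F8 also overlaps that of Fundc2 on the other strand, though not at the 3′ end of F8. Fundc2 reached at most 246 normalized reads.

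Lyve1 varied more within each group than the other 9 markers, by 56.4% of the mean in the controls and 33.1% in the URI(+/D)Hep livers. It encodes a hyaluronan receptor of sinusoidal and lymphatic endothelium. It read 119, 103 and 30.04 in the controls and 61.9, 113, 133, 69.3 and 129 in the URI(+/D)Hep livers. Control 3 and URI(+/D)Hep 1 and 4 are low and the other 5 livers lie between 103 and 133, so the low and high livers do not follow the genotype. The log2 fold change was 0.42 (SE 0.46, 95% interval -0.61 to 1.45, limma adjusted p = 0.672), and without control 3 it was -0.20. Clec4g encodes LSECtin, a C-type lectin of sinusoidal endothelium. It read 88.7, 82.7 and 59.0 in the controls and 75.2 to 127 in the URI(+/D)Hep livers, with URI(+/D)Hep 1 highest and URI(+/D)Hep 5 lowest, and 3 of these exceed all controls. The log2 fold change was 0.38 (SE 0.22, 95% interval -0.11 to 0.86, limma adjusted p = 0.396), and without control 3 it was 0.20.

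F8, for coagulation factor VIII, had the largest log2 fold change of the 10 in the limma comparison of all 8 libraries. It read 149, 190.0 and 227 in the controls and 409, 328, 307, 387 and 244 in the URI(+/D)Hep livers. The groups do not overlap, though URI(+/D)Hep 5 lies near control 3. The means were 189 ± 39.4 (SD, n = 3) and 335 ± 65.7 (SD, n = 5), giving 0.82 as log2 fold change (SE 0.20, 95% interval 0.38 to 1.27, limma adjusted p = 0.115, exact permutation p = 0.0179). DESeq2 gave an adjusted p of 0.00939. Over the 23 settings the log2 fold change of F8 lay between 0.46, with control 3 as the single control, and 0.97, with adjusted p from 0.00187 to 0.616 over limma, edgeR and DESeq2. F8 lies on the X chromosome, and control 3, with Xist reads, had the highest control value. With the Y-linked share of reads as a covariate its log2 fold change was 0.61 (limma adjusted p = 0.193). With that covariate Stab1 went from -0.44 to -0.22 (limma adjusted p = 0.535), Kdr from 0.30 to 0.11 and Lyve1 from 0.42 to 1.04, while Tek stood at 0.61 and Stab2 at 0.31. The part of sex-linked composition in this difference was otherwise not tested.

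**Figure D2:**
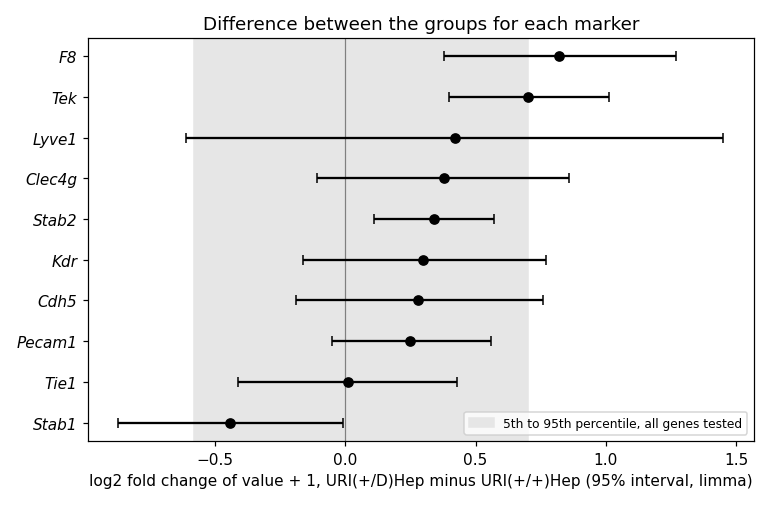
Log2 fold change of each marker with its 95% interval from limma (horizontal axis, URI(+/D)Hep minus URI(+/+)Hep), beside the 5th to 95th percentile of all 13704 genes tested, -0.58 to 0.70, in grey. F8 and Tek sit at or past the upper edge of that band, and Stab1 is the 1 marker with a clearly negative estimate.

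Summed over the 10 genes, the markers took 0.0474 to 0.0619% of reads in the controls and 0.0644 to 0.0736% in the URI(+/D)Hep livers. Stab2 and Kdr have the highest values, so the sum weighs them most. In normalized reads, the summed pan-endothelial list overlapped between the groups, at 5353 to 5793 in the controls against 5751 to 6416. The other sinusoidal list also overlapped, at 5955 to 6916 against 6778 to 7276. So did the portal and large-vessel list, at 791 to 1075 against 794 to 1038. The lymphatic list did not, at 1389 to 1902 against 1963 to 2243. The largest part of that sum was Prox1, also a hepatocyte factor, at 1003 to 1097 against 1300 to 1432. It is therefore not a measure of lymphatic endothelium alone. In bulk tissue, fewer or more cells of a type and less or more RNA per cell cannot be told apart. Set against each gene's control mean, between 6 and 9 of the 10 markers were higher in each URI(+/D)Hep liver, with a median between 0.20 and 0.41 on the log2 scale. Among the controls 9 of 10 were above that mean in control 2 and 5 of 10 in controls 1 and 3. The markers within 1 liver were far apart: in URI(+/D)Hep 1 F8 was 1.13 above and Stab1 0.69 below its control mean (-0.69), and in control 3 Kdr was 0.35 above and Lyve1 at -1.23. In all 5 URI(+/D)Hep livers Stab1 was the lowest of the 10 by this measure.

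**Figure D3:**
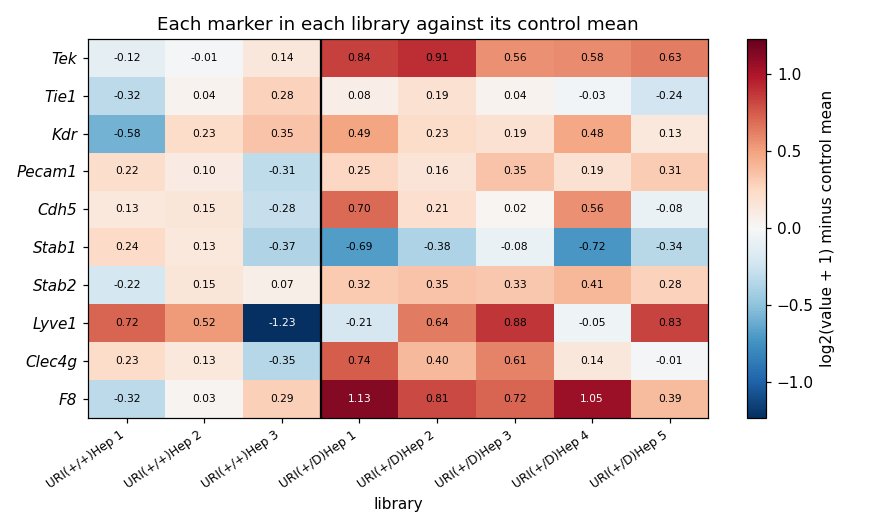
Log2(value + 1) of each marker minus its mean over the 3 controls (colour and printed number) for each library, controls to the left of the black line. Columns mix red and blue: Stab1 is negative in all 5 URI(+/D)Hep livers while Tek, Stab2 and F8 are positive in all 5.

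Ratios between markers within a library were compared next, since they do not depend on the scaling of the library. The pairs were chosen with earlier results of these data known, so their p-values are no independent support. The level of a ratio also reflects how each gene's tag is read, so it is compared between livers and not between genes. The ratio of Tek to Tie1 was 2.09, 1.75 and 1.63 in the controls and 3.08, 3.00, 2.61, 2.78 and 3.33 in the URI(+/D)Hep livers. The groups do not overlap, and the difference of 0.70 on the log2 scale (0.84 ± 0.18 against 1.54 ± 0.13, SD) had an exact permutation p of 0.0179, adjusted 0.0714 over the 4 ratios computed. The ratio of Stab2 to Stab1 was 2.09, 2.91 and 3.90 in the controls and 5.82, 4.76, 3.82, 6.31 and 4.41 in the URI(+/D)Hep livers. There 4 of 5 livers exceeded all controls, with a log2 difference of 0.78 (two-sided exact permutation p = 0.0357, adjusted 0.0714). The ratio of F8 to Stab2 was 0.240 ± 0.0336 (SD, n = 3) against 0.338 ± 0.0608 (SD, n = 5), higher than all controls in 4 of 5 livers (exact permutation p = 0.0714, adjusted 0.0952). The ratio of Cdh5 to Pecam1 differed by 0.03 on the log2 scale, well within its spread of 0.07 and 0.38 (exact permutation p = 0.804, adjusted 0.804). None of the 4 ratios passed after adjustment. The first 3 ratios given here kept a higher mean in the URI(+/D)Hep livers when any 1 library was left out.

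**Figure D4:**
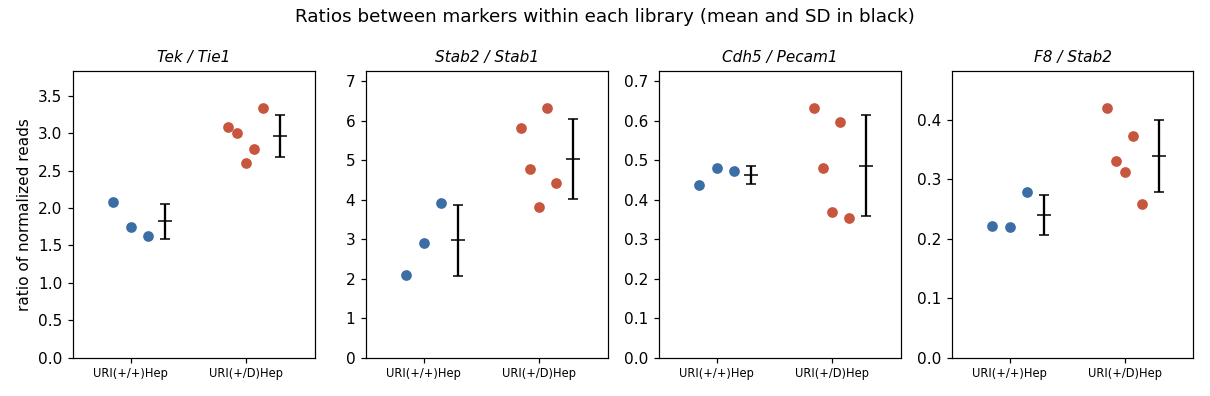
Ratio of normalized reads of 2 markers in each library (vertical axes, from 0), with mean and SD in black for the 3 URI(+/+)Hep and 5 URI(+/D)Hep livers. The ratio of Tek to Tie1 lies between 1.63 and 2.09 in the controls and between 2.61 and 3.33 in the URI(+/D)Hep livers, and the ratio of Cdh5 to Pecam1 overlaps.

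Over the 8 libraries the markers were correlated pair by pair on the log2(value + 1) scale. Of 45 pairs 31 had a positive and 14 a negative Pearson r, with a median of 0.33. On deviations from the group means, 23 of 45 were positive, with a median of 0.05. After adjustment over the 45 pairs 0 passed in the exact permutation test, the smallest adjusted p being 0.0511, and 12 had an unadjusted p under 0.05. Stab2 and F8 varied together (r = 0.89, exact permutation p = 0.00161, adjusted 0.0511, rho = 0.83, p = 0.0154, adjusted 0.173). Their r was 0.89 without the 2 libraries farthest from the median of Stab2 and 0.63 within the groups. Kdr and Stab1 varied in opposite directions (r = -0.78, exact permutation p = 0.0035, adjusted 0.0511, rho = -0.76, p = 0.0368, adjusted 0.324), and r was -0.65 without the 2 libraries farthest from the median of Kdr. Pecam1 and Lyve1 had r = 0.82 (exact permutation p = 0.0348, adjusted 0.174, rho = 0.69, p = 0.0694, adjusted 0.347), which rests on 2 libraries, since r was 0.01 without those farthest from the median of Pecam1.

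Because the livers differed widely in Mki67, the markers were also set against it, a comparison chosen after the values were seen. Kdr followed Mki67 closely over the 8 livers (r = 0.89, exact permutation p = 0.000149, rho = 0.95, p = 0.00114). Adjusted over 13703 genes compared with Mki67 its p was 0.0171, and r was 0.93 without control 1 and URI(+/D)Hep 5, the livers farthest from the median of Mki67. This is no rarity in these livers: 25.9% of all genes had an unadjusted p under 0.05 in this comparison and 8.32% an adjusted one. Stab1 and Lyve1 were lower where Mki67 was higher, by rank. For Stab1 rho was -0.88 (exact permutation p = 0.00724) and r -0.62 (exact permutation p = 0.0943, adjusted over all genes 0.266), with r = -0.89 without those 2 livers. For Lyve1 rho was -0.79 (exact permutation p = 0.0279) and r -0.56 (exact permutation p = 0.125, adjusted over all genes 0.311), with r = -0.72 without them. F8 had r = 0.70 (exact permutation p = 0.0531, adjusted over all genes 0.198, rho = 0.71, p = 0.0576), 0.93 within the groups, and 0.49 without them. Stab2 had r = 0.64 (exact permutation p = 0.0722, adjusted over all genes 0.232), 0.84 within the groups, and 0.17 without them. Tie1 had r = 0.85 (exact permutation p = 0.0126, adjusted over all genes 0.0916), which rests on those 2 livers, as r was 0.03 without them. For Tek r was 0.40 (exact permutation p = 0.322), and in this comparison adjusted p over all genes was at least 0.198 for the other 8 markers than Kdr and Tie1. By deviations from the group means, r with Mki67 was 0.90 for Kdr, 0.88 for Tie1, 0.47 for Tek and 0.26 for Cdh5. It was -0.03 for Clec4g, -0.62 for Stab1, -0.68 for Pecam1 and -0.69 for Lyve1.

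**Figure D5:**
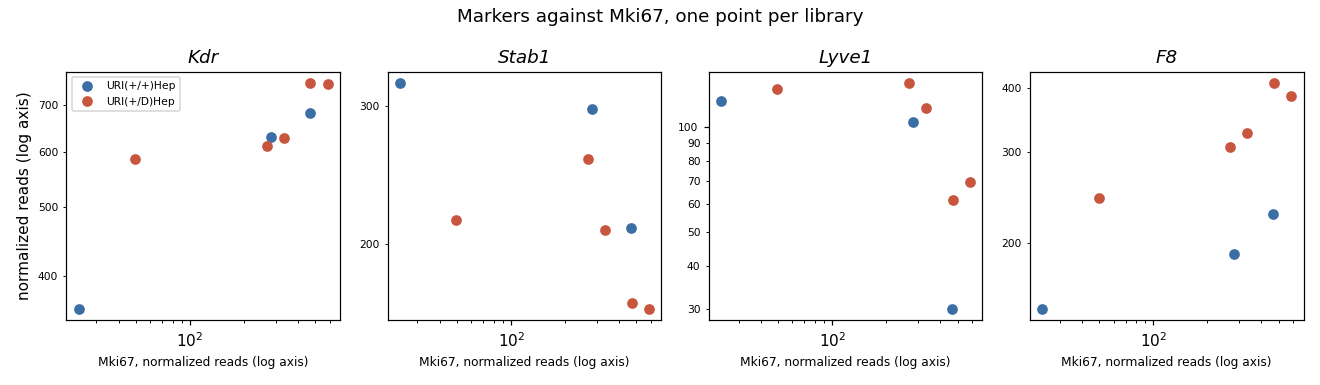
Normalized reads of Kdr, Stab1, Lyve1 and F8 (vertical log axes) against normalized reads of Mki67 (horizontal log axis), 1 point per library, blue for URI(+/+)Hep and red for URI(+/D)Hep. Kdr climbs with Mki67 in both genotypes, the 3 livers lowest in Lyve1 (30.04, 61.9 and 69.3) are those highest in Mki67, and for F8 the red points lie above the blue ones at similar Mki67.

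Genes known to act with these markers were described from lists. In each of them 0 genes were called over all genes tested by limma, so counts of signs are a description beside the 49.8% of all genes with a positive log2 fold change. Single genes without overlap between the groups stand beside 6.13% of all genes above and 7.3% below all controls. Of 30 further pan-endothelial genes tested 20 had a positive and 10 a negative value, with a median of 0.21. The phosphatase gene Ptprb, whose product VE-PTP acts on TIE2 and VE-cadherin, stood at 939 ± 77.1 normalized reads in the controls and 1219 ± 53.2 in the URI(+/D)Hep livers, higher in 5 of 5 than in any control (log2 fold change 0.38, limma adjusted p = 0.116). Tspan7 stood at 348 ± 33.1 against 453 ± 26.8, also without overlap. Rasip1, a regulator of vessel lumen formation, stood at 393 ± 104 against 253 ± 42.0 (log2 fold change -0.62, limma adjusted p = 0.177).

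Of 28 other sinusoidal genes tested, 23 had a positive value (median 0.27), or 18 of 28 once control 3 was left out. Maf, a transcription factor of sinusoidal identity, stood at 658 ± 67.8 against 842 ± 75.8, without overlap (log2 fold change 0.35, limma adjusted p = 0.166). Il1a was low, at 6.81 ± 1.30 against 18.3 ± 5.18. The fatty acid receptor gene Cd36, which hepatocytes and macrophages also express, was lower in 5 of 5, at 449 ± 65.2 against 233 ± 38.3 (log2 fold change -0.95, limma adjusted p = 0.108). Portal and large-vessel genes had another balance, with 4 of 12 positive and a median of -0.10. Selp, for P-selectin, which platelets also carry, stood at 69.6 and 54.2 in controls 1 and 2 and at 4.68 to 13.5 in control 3 and the URI(+/D)Hep livers. The ephrin gene Efnb2 stood at 5.84 ± 5.14 against 22.6 ± 17.6 and the connexin gene Gja5 at 15.8 ± 6.35 against 11.1 ± 7.36. Of the lymphatic list Prox1, also a hepatocyte factor, stood at 1044 ± 48.3 against 1393 ± 55.8 and Pdpn at 47.4 ± 12.3 against 35.8 ± 11.6, with Reln at 416 ± 217 against 579 ± 136.

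Ligands of the receptors were read together with further receptors. All 8 genes tested of the VEGF list, which holds ligands and receptors, had positive values, with a median of 0.10. No gene of it had an unadjusted p under 0.05 in limma. Vegfa, the main KDR ligand, stood at 190.2 ± 8.95 against 208 ± 16.3, and the decoy receptor gene Flt1 at 389 ± 64.7 against 446 ± 43.2. The ligand gene Vegfd stood at 74.8 ± 4.45 against 116 ± 40.9 (log2 fold change 0.55, limma adjusted p = 0.364). In the angiopoietin and TIE list 6 of 11 were positive, with a median of 0.05. The agonist ligand gene Angpt1 stood at 42.1 ± 16.9 against 49.7 ± 7.24, and Angpt2, the context-dependent antagonist, at 1.07 to 10.8 normalized reads in the controls and 0 to 4.83 in the URI(+/D)Hep livers. At 3 reads a gene stands at 2.65 to 3.6 normalized reads, depending on the library, so differences of Angpt2 were not detectable at this depth. Of signalling genes in this list Grb14 stood at 421 ± 68.1 against 509 ± 72.7 (limma adjusted p = 0.373) and Akt1 at 129.9 ± 18.7 against 111 ± 19.2 (limma adjusted p = 0.515).

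Of 17 endothelial transcription factor genes tested 14 were positive, with a median of 0.31. Lmo2, a partner of TAL1 in blood and vessel cells, stood at 20.5 ± 5.40 against 39.7 ± 4.46, without overlap (log2 fold change 0.95, limma adjusted p = 0.115). Ets2, active in many cell types, stood at 425 ± 76.9 against 264.5 ± 35.1, lower in 5 of 5 (log2 fold change -0.68, limma adjusted p = 0.115). Junction genes split evenly, 8 of 16 positive, with 2 genes above and 3 below all controls, beside 6.13% and 7.3% of all genes tested. Among these, Ocln was higher and F11r and Ctnnb1 lower in 5 of 5 livers, all 3 also genes of hepatocyte junctions. In the scavenger and lectin list 6 of 12 were positive, with Scarb2 at 1970 to 2186 in the controls against 1502 to 1637 and the hepatocyte lectin gene Asgr1 at 6618 to 7879 against 4858 to 6129, both without overlap.

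Among partners of factor VIII, where 5 of 13 genes were positive, Lman1, part of the cargo receptor that carries factor VIII out of the endoplasmic reticulum, stood at 3381 ± 257 against 2782 ± 267, lower in 5 of 5 (log2 fold change -0.28, limma adjusted p = 0.238). Lrp1, a clearance receptor, stood at 2378 ± 143 against 2075 ± 249.3, Tfpi, for an inhibitor of the tissue factor pathway, at 38.2 ± 9.75 against 56.3 ± 7.88, and Vwf, for the carrier protein of factor VIII in plasma, at 19.0 ± 7.30 against 18.01 ± 9.64. These genes are expressed by several liver cell types.

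In the lists of other liver cells 0 genes were called by limma, and the summed levels of those given here overlapped between the groups. Stab1 and Pecam1 are also read in leukocytes. Of 13 neutrophil and monocyte genes tested 12 were negative, with a median of -0.92, and their summed level ranged from 884 to 2141 normalized reads in the controls and from 646 to 1868 in the URI(+/D)Hep livers. Several of these genes were high in controls 1 and 2 alone, as for F13a1, at 155.9, 192.0 and 10.7 in controls 1 to 3 and 7.96 to 42.6 in the URI(+/D)Hep livers, and Mmp8, at 128, 139.8 and 23.6 against 10.3 to 52.4. Control 3 was thus at the level of the URI(+/D)Hep livers for both genes, as it was for Stab1. The chemokine receptor gene Ccr2 stood at 113 ± 48.1 against 45.1 ± 16.7, Mmp9 at 70.6 ± 24.9 against 33.7 ± 4.96 and Csf3r at 87.1 ± 31.8 against 45.6 ± 7.17 (limma adjusted p = 0.135, 0.132 and 0.161). Of 16 Kupffer and macrophage genes 10 were positive, with a median of 0.24, and the sums ranged from 7289 to 9253 and from 7469 to 9259. There the complement receptor gene Vsig4 stood at 193 ± 57.7 against 279 ± 31.5, C1qa at 953 ± 76.0 against 802 ± 61.7 and the iron exporter gene Slc40a1 at 303 ± 141 against 482 ± 114. C1qb and C1qc did not share the sign of C1qa, at 182 ± 41.5 against 207 ± 22.2 and 210 ± 49.6 against 257 ± 25.7. Platelet and megakaryocyte genes summed to 74.0 to 171.5 and to 82.4 to 108.8 (Pf4 46.3 ± 23.5 against 25.7 ± 5.82, Itga2b 67.9 ± 30.4 against 55.3 ± 8.92). B and plasma cell genes summed to 84.0 to 315 and to 289.8 to 535, and T and NK genes to 66.0 to 131 and to 74.4 to 133. Cholangiocyte genes summed to 467 to 1871 and to 363 to 1604, with Epcam, Cftr, Cldn7 and Krt19 far higher in URI(+/D)Hep 5 than in the other 7 livers, and mitosis genes, all 12 of them with positive values, to 329.8 to 4760 and to 501 to 4794. Stellate genes summed to 2806 to 3037 and to 2773 to 2968, with 5 of 19 positive and a median of -0.13. No marker in the table was at 0 in every library in these lists. The part of these cells in the differences of Stab1 and Pecam1 was not tested.

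For each marker the genes with the most similar profile over the 8 libraries were taken from 9605 other genes whose mean reached 50 normalized reads. With 8 points and so many genes, high coefficients are reached by selection, and they are given without p. For Tek these were Armt1 (r = 0.993), Snrk (0.989) and Ubr4 (0.978). For F8 they were Sfmbt1 (0.992), Naaladl2 (0.982) and Rad50 (0.976), and for Stab2 Ptprm (0.998), Zfp638 (0.989) and Prex2 (0.988). Stab1 was near to Col4a1 (0.988) and Mfge8 (0.985), Lyve1 to Rapgef5 (0.983), Cacna1d (0.982) and Adam23 (0.976), and Kdr to Pou2f2 (0.992), Tmie (0.992) and Iah1 (0.990). Tie1 was nearest to Apeh (0.985), Adam12 (0.964) and Cstf3 (0.962), Pecam1 to Crbn (0.970), Bmp2k (0.969) and Dclre1c (0.954), Cdh5 to Setdb1 (0.956), Vgll4 (0.926) and Rcsd1 (0.924), and Clec4g to Atp6v1d (0.954), Os9 (0.940) and Gimap6 (0.910). The markers themselves were not each other's nearest genes: the best placed fellow marker ranked 109 for Tek (F8), 185 for F8 (Stab2), 98 for Clec4g (Pecam1) and 2307 for Stab1 (Lyve1).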

How the data were processed

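Libraries of whole liver RNA were made by oligo-dT priming, with 6 nt unique molecular identifiers, and keep the strand, per the labels' protocols. GRCm39, featureCounts, bcl2fastq and DESeq2 appear in the submitters' processing notes. Aligner, annotation and identifier handling were not given in the sources used here; a value may therefore count reads or molecules. The deposited signal, made by the authors, reads from its values as gene counts divided by a size factor per library. Within a library the lowest nonzero value was taken as 1 read, which gave whole reads for 100% of values (tolerance 1e-06). In URI(+/D)Hep 5 that value is 0.989, close to 1, so it is less certain to be 1 read, and count tests were repeated without this library. Rows with fewer than 10 reads in all were not in the table.

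Genes reaching 10 normalized reads in 3 or more libraries entered the test as log2(value + 1), which understates changes of low genes, with limma 3.58.1 in R 4.3.3 (mean-variance trend, Benjamini-Hochberg). edgeR 4.0.16 and DESeq2 1.42.0 were run on recovered reads of the same genes. DESeq2 left 2164 of them without an adjusted p. limma was also tested on simulated data. The members, lists and ratios were chosen with earlier results of these data known. The rule for genes named was the 10 markers, the 3 with the smallest limma p per list (for stellate, lymphoid, biliary, hepatocyte and mitosis lists only sums or counts are given), the nearest profiles, and Uri1, Mki67 and sex-linked genes. Angpt1, Angpt2 and Vwf were added for their roles, and C1qb and C1qc to stand beside C1qa. Intervals cover the spread between samples. For Stab1, 1 of the nearest profiles is not reported here.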

Additional observations from a re-analysis of the deposited data

Results flagged for a closer look

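In 8 of 103 values examined, 1 of the 5 URI(+/D)Hep livers lay apart from the others by Dixon's criterion, where chance gives about 1 in 20. None of the 10 markers and none of the 4 ratios was among these 8. Epcam, Cftr, Cldn7, Krt19 and Mecom, far higher in URI(+/D)Hep 5 as given below, were not among the 103 values, so the count does not cover them. URI(+/D)Hep 1 was apart for the Y-linked genes Ddx3y, at 1.77 normalized reads against 295 to 378, Eif2s3y, at 0.884 against 109.8 to 149, and Kdm5d, at 0 against 65.7 to 91.0. A count of 0 in that library allows up to 2.65 normalized reads. URI(+/D)Hep 5 was apart for Efnb2, a marker of arterial and portal endothelium, at 53.4 against 11.5 to 21.3, in a liver that also had the highest Epcam, at 525, and for the lymphocyte gene Gzma, at 48.5 against 9.67 to 14.99. It was also apart for Naaladl2, whose profile is near that of F8, at 603 against 1001 to 1158, and for Cstf3, near Tie1, at 548 against 631 to 662. URI(+/D)Hep 3 was apart for Crbn, near Pecam1, at 137 against 109.6 to 117.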

How the results depend on the processing

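Tek, F8, Stab2, Pecam1, Cdh5 and Clec4g kept positive log2 fold changes and Stab1 a negative or zero one in all 23 alternatives. The number of markers called higher was 2 with DESeq2 on 8 libraries and 2 with DESeq2 on 7, a set added after seeing the data, and 0 in the other 21. For Tie1, with 11 reversals, values were -0.01 with TMM recentring, quantile normalization, edgeR and DESeq2, -0.12 with the Y-linked share, -0.09 without control 1 and URI(+/D)Hep 5, and -0.15 to 0.15 without single libraries. Without single libraries, Lyve1 ranged from -0.20 to 0.78, the markers' median from 0.17 (without control 3) to 0.42, the Cdh5 to Pecam1 ratio from -0.08 to 0.13, and markers below all controls from 0 to 1. Against control 3 alone, assumed to vary like the other group, the median was 0.46, Tie1 stood at -0.29 and Kdr at -0.09. Without control 1 and URI(+/D)Hep 5, 5 markers were above all controls, beside 12.9% of all genes tested. The cause was not tested. A replicate block gave 0.77 for Tek and 0.89 for F8, adjusted p = 0.616 for both in limma. Same-numbered livers did not vary together over all genes tested (correlations of -0.404, -0.043 and -0.266). Since the livers also differed in Mki67 and sex-linked make-up, these correlations cannot settle whether the numbers pair them. Counting error is largest for Lyve1, up to 18.9%.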

Other observations

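Genes listed for larger vessels were read beside the sinusoidal markers, chosen after their values were seen. URI(+/D)Hep 5 was the highest of the 8 livers for 5 of 17 portal and large-vessel genes, Vwf, Efnb2, Gja5, Ly6a and Ntn4, and for 0 of the 10 sinusoidal and endothelial markers, beside 12.15% of all genes tested. Vwf stood at 33.6 normalized reads in that liver against 7.49 to 26.4 elsewhere. Mecom, a transcription factor of arterial endothelium and other cells, stood at 415 against 26.4 to 87.0 elsewhere, and Klf4, a factor of endothelium and epithelia, at 518 against 67.4 to 206. Biliary and epithelial genes were high in the same liver: Epcam stood at 525 against 7.96 to 29.96 elsewhere, Cftr at 283 against 9.66 to 33.8, Cldn7 at 258 against 5.62 to 26.1 and Krt19 at 65.3 against 0 to 5.91. Their part in the values of the vessel genes was not tested. URI(+/D)Hep 1 was the highest for 12 of 31 pan-endothelial genes, among them Erg, at 92.8 against 34.8 to 85.2, and S1pr1, at 352 against 121 to 318, and for 4 of the 10 markers, Kdr, Cdh5, Clec4g and F8, beside 11.3% of all genes tested.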
